A study of Homo sapiens with 8 samples.

Results

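Ferroptosis control genes were examined as a group of 10: GPX4, AIFM2, DHODH, GCH1, SLC3A2, ACSL4, LPCAT3, ACSL3, TFRC and NCOA4. They were chosen for their known roles, though earlier results of these data were known when they were chosen. For each gene, the H3K27ac regions that overlapped the gene body or the 20 kb on either side of it were kept. This gave 34 regions among the 49186 of the whole data set. A region is a stretch in which peaks of any of the 6 libraries overlapped by at least 1 base, so a region can be called (hold a peak) in some libraries and not in others.

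The libraries come from A549, a human lung adenocarcinoma line in which the transcription factor NRF2 (gene NFE2L2) is persistently active. All cells were grown in high-glucose medium with serum, transfected with siRNA and harvested 48 h later for chromatin immunoprecipitation with an antibody to H3K27ac, the histone acetylation found at active promoters and enhancers. There were 3 control siRNA libraries (control 1, 2 and 3) and 3 NRF2 siRNA libraries. NRF2 siRNA 1 used siRNA number 28, and NRF2 siRNA 2 and 3 used siRNA number 30, so only 1 library stands for siRNA 28. The study describes the experiments as independent, in a single cell line. A transient knockdown lowers NRF2 for a short time and leaves the gene in place, and H3K27ac does not measure whether the knockdown worked: the NFE2L2 start region lay at percentiles 97.93, 98.13 and 98.24 in controls and 94.63, 97.94 and 96.82 with NRF2 siRNA. Cells were measured in bulk, so acetylation in fewer cells and less acetylation per cell cannot be told apart.

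The peak lists held 27941, 34747 and 41571 peaks in controls and 23885, 34986 and 39108 with NRF2 siRNA, and they give no read counts. The study's supplement lists mapped reads for each library, far fewer for both replicate 1 libraries than for the rest. Those totals were not used here, and the part of depth in the results was not tested. The list of NRF2 siRNA 1 was the shortest, and it called 41.2% of the 34 regions and 41.7% of all regions. Control 3 had the longest list and called 82.4% and 82.3%. The peak names of both replicate 1 libraries lack the flow cell identifier that the other 4 carry, and siRNA 28 is in that pair alone, so flow cell and siRNA cannot be told apart. Of the epithelial markers, KRT8, KRT18, EPCAM, CDH1 and MUC1 had a start region called in all 6 libraries and KRT19 in 0. The alveolar markers NKX2-1, SFTPB, SFTPC and NAPSA and the immune markers PTPRC and CD3E had a start region called in 0 libraries, COL1A1 in 1 of each group, and ALB in 2 NRF2 siRNA libraries.

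Ferroptosis is a form of cell death driven by iron-dependent peroxidation of membrane lipids. It needs polyunsaturated fatty acids in phospholipids and redox-active iron, and it is held back by enzymes that reduce lipid peroxides or supply radical-trapping molecules. NRF2 is known to drive several genes of glutathione synthesis and iron handling, which is why the ferroptosis machinery is of interest in lung cancers with high NRF2 activity. NRF2 binds DNA with small MAF proteins at antioxidant response elements, whose core is written TGACNNNGC.

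The core was searched on both strands in the GRCh37 sequence under each region. It was found in 17 of the 34 regions (50%), against 52.7% of the 49154 regions on chromosomes, and its density was 0.393 per kb against 0.396 per kb. The 300-base promoters at the outermost start of the 10 genes, from 250 bases before it to 50 after, held 0 cores. Of 20136 promoters of coding genes, 13.7% held at least 1. Promoters at inner starts, such as those of SLC3A2 and NCOA4 described below, were not searched in this way. The variant TGACTCAGC was counted separately, a choice made after values were seen. It also holds TGACTCA, the site of AP-1 factors, so a match names neither factor. It lay in 7 of the 34 regions (20.6%) against 9.11% of all regions. Longer regions hold more matches by length alone, so the share among regions of like length (up to 20% shorter or 25% longer) is given beside each match. These sites are shown because they lie in regions described below. Each is read 5′ to 3′ from GRCh37 on the strand given, with the core in capitals.
AIFM2 start region, in an AIFM2 exon, 91 bases after the start, plus strand, chr10:71892585-71892613 (9.35% of like-length regions held a match): gggcggggcgTGACTCAGCactcgtgctg
AIFM2 intron, 7857 bases after the start, plus strand, chr10:71884819-71884847 (6.45%): caccatgggaTGACTCAGCatgaaggccc
DHODH exon, 16475 bases after the start, minus strand, chr16:72058948-72058976 (6.46%): aaggcaccaaTGACTCAGCaataataaat
SLC3A2 inner start region, intron, plus strand, chr11:62649124-62649152 (13.7%): cgagggtgggTGACTCAGCgtcctccttc
SLC3A2 inner start region, second match, plus strand, chr11:62652175-62652203: gccattctgcTGACTCAGCtccaatgtgg
GPX4 start region, -4334 bases from the start, plus strand, chr19:1099633-1099661 (19.3%): agtcaccataTGACTCAGCaattccactc

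Of the regions not shown, matches lay in the one 15336 bases before ACSL3 and in the region at the EMG1 and PHB2 starts beside LPCAT3. For contrast, the 250 bases upstream of 3 starts are shown, since H3K27ac was called there in most libraries and none of them holds the core. They are written 5′ to 3′ in the direction of transcription.
AIFM2, minus strand, chr10:71892691-71892940: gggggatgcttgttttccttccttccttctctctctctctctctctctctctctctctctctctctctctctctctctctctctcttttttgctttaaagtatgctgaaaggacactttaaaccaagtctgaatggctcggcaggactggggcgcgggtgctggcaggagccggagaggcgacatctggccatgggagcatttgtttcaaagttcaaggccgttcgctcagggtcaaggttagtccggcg
GPX4, plus strand, chr19:1103731-1103980: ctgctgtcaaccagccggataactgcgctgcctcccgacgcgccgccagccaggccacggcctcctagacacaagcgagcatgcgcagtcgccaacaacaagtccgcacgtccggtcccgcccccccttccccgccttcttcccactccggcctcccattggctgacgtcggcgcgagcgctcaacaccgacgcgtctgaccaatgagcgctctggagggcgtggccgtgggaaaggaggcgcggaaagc
TFRC, minus strand, chr3:195809025-195809274: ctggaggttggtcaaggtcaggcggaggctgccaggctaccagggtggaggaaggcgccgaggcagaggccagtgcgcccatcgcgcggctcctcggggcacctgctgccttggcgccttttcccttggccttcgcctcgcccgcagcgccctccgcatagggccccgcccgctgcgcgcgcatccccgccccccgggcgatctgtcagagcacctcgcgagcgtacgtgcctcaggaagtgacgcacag

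The first shows a long run of alternating t and c, and its G and C content was 52.8%, against 68.4% for GPX4 and 72% for TFRC.

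For each region, the fold enrichment of its highest peak was taken. It was turned into a percentile within that library's list (0 for the weakest peak, 100 for the strongest). A percentile still depends on list length, because a longer list can hold more weak peaks below a region. The part of list length in the percentiles, and in separations between groups read from them, was not tested. Changes were tested on scores: each library ranked the regions that had a peak in 3 or more of the 6 lists, the ranks were turned into values of a standard normal distribution, and limma compared the groups over all 32673 of them, with Benjamini-Hochberg adjustment. A score change is NRF2 siRNA minus control. Of the 34 regions, 22 could be tested, 14 were called in all 6 libraries and 8 in a single library. Scores have 1 limit, which touches several members and also other regions of the data set. A region that neither library of pair 1 called still gives a change of 0.2511 in that pair. This arises because the lowest shared rank depends on list length.

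H3K27ac near the ferroptosis control genes was present in both groups at most starts, and in the limma fit 0 of the 22 tested regions passed an adjusted p of 0.05 in either direction. Over all regions, 3.39% were called lower and 2.01% called higher with NRF2 siRNA. At an unadjusted p under 0.05 there were 3 of 22 regions (13.6%), against 22.5% of all regions tested. The fit with the replicate number as a block also called 0 lower and 0 higher, and limma with its trend and robust options called 1 lower, the region beside LPCAT3 described below. Changes were negative in 16 of 22 regions (72.7%), against 48.5% of all, and their median was -0.09 score units against 0.02 over all regions tested. In pairs 1, 2 and 3 the median was -0.08, -0.08 and -0.28, against 0.17, 0.02 and 0.0008 over all regions tested. The median over all regions tested was highest in pair 1. Regions that neither library of that pair called give a positive change there. Of the 22 regions, 14 were called in all 6 libraries, against 16845 of the 32673. The part of uncalled regions in the share of negative changes and in the medians was not tested. At 12 of the 22 regions the change had the same sign in all 3 pairs, against 16828 of 32673 over all regions. In both sets, the sign in pair 1 is fixed as positive where neither library of that pair called the region. Among the 12 this holds for the MACROH2A2 intron and the DHODH start, described below. The AIFM2 intronic region, called in controls alone, is also among them.

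**Figure D1:**
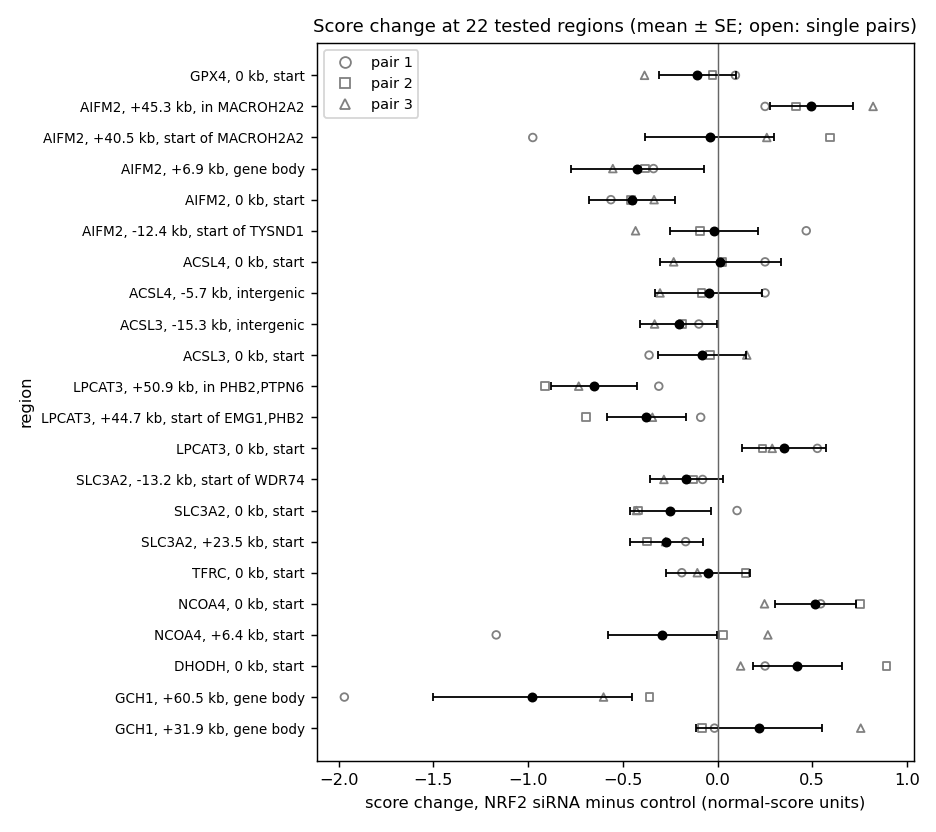
Score change (NRF2 siRNA minus control, normal-score units, horizontal axis) of the 22 tested regions, each named by gene and distance from the gene's start, with filled points and bars for the mean ± SE (limma, n = 3 against 3) and open symbols for the single pairs. All means lie between -0.98 and 0.52, and the GCH1 region at the 3′ end has the widest spread over pairs, from -1.97 to -0.36.

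**Figure D2:**
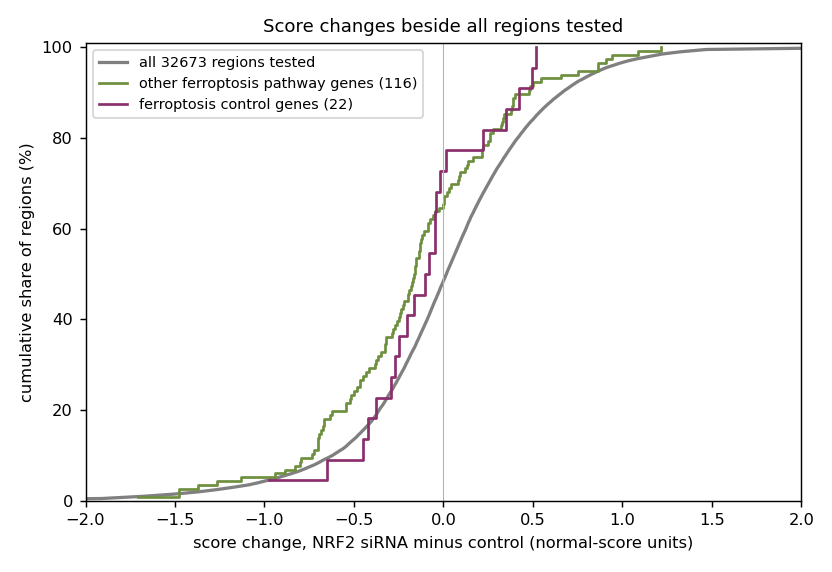
Cumulative share of regions (vertical axis, percent) by score change (horizontal axis, cut at -2 and 2) for the 22 tested regions of the ferroptosis control genes, 116 regions of other ferroptosis pathway genes and all 32673 regions tested. The curve of the 22 regions has its median at -0.09, and the curve of all regions at 0.02.

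The order of H3K27ac at the start regions, by mean percentile over the 6 libraries with an uncalled region counted as 0, was SLC3A2 (95.5), ACSL3 (94.3), GPX4 (93.2), LPCAT3 (79.9), AIFM2 (71.3), TFRC (57.4), NCOA4 (38.8), ACSL4 (32.3), DHODH (8.66) and GCH1 (4.79). Where a gene had several start regions, the one of highest mean percentile was taken. GPX4 exceeded LPCAT3 in all 6 libraries. No other neighbouring pair in this order kept its order in all 6: SLC3A2 exceeded ACSL3 in 4, ACSL3 exceeded GPX4 in 5, LPCAT3 exceeded AIFM2 in 5, AIFM2 exceeded TFRC in 4, TFRC exceeded NCOA4 in 5, NCOA4 exceeded ACSL4 in 2, ACSL4 exceeded DHODH in 4 and DHODH exceeded GCH1 in 2. Apart from GPX4 and LPCAT3, neighbours in the order were thus not separated in every library.

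**Figure D3:**
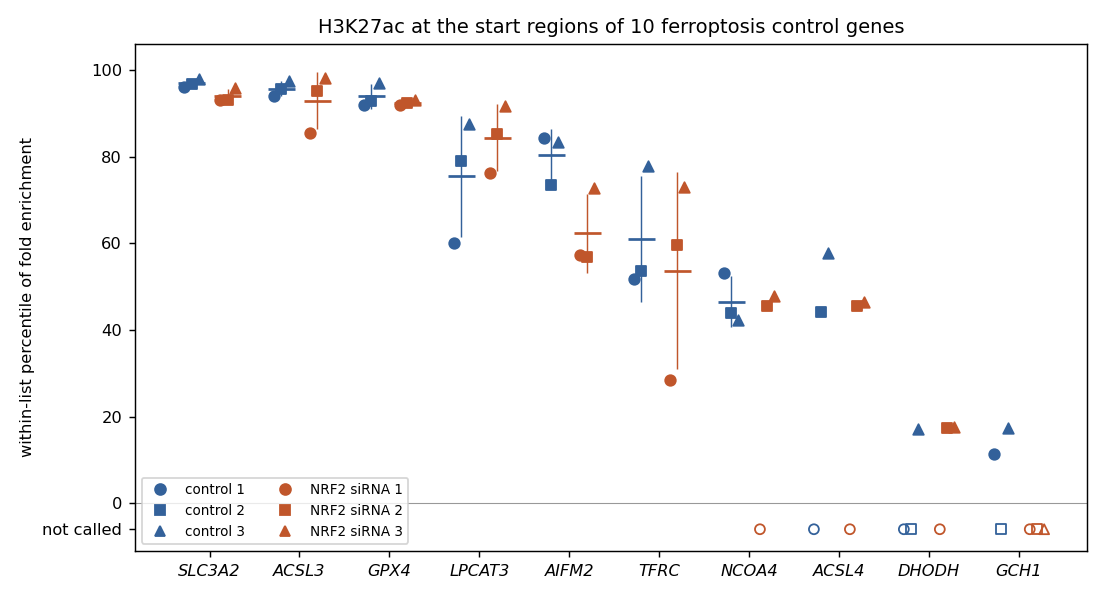
Within-list percentile of fold enrichment (vertical axis) at the start region of each gene in the 3 control siRNA (blue) and 3 NRF2 siRNA (orange) libraries, with the replicate number given by the symbol, bars for the mean ± SD where all 3 libraries of a group called the region, and open symbols below 0 for libraries that did not. SLC3A2, ACSL3 and GPX4 lie above 85 in every library, and GCH1 was called in 2 controls alone.

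GPX4 encodes the glutathione peroxidase that reduces lipid hydroperoxides in membranes. Its start lies in a region of 10352 bases, chr19:1094880-1105231, which also holds the start of POLR2E, a subunit gene of RNA polymerases, so acetylation there cannot be assigned to GPX4 alone. The region stood at percentiles 91.84, 92.74 and 97.08 in controls and 91.87, 92.43 and 93.16 with NRF2 siRNA. The groups overlapped, and control 3 was the highest of the 6. The means were 93.9 ± 2.80 and 92.5 ± 0.65 (SD, n = 3 each), and the score change was -0.11 ± 0.20 (SE, limma adjusted p = 0.812). In NRF2 siRNA 1 the region was split into 2 peaks, with a gap from -4.736 to -3.434 kb relative to the start. The peak of control 1 ran from -6.632 to -0.226 kb and did not reach the start, while that of NRF2 siRNA 1 from -3.434 to 0.336 kb did. The 2 other regions in the GPX4 window lay over exons of SBNO2 and were each called in 1 library, control 3 at percentile 23.1 and NRF2 siRNA 3 at 27.7.

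AIFM2 encodes FSP1, an oxidoreductase that regenerates the radical-trapping form of ubiquinone at the plasma membrane without glutathione. Its start region, chr10:71889811-71893539, lay at percentiles 84.23, 73.46 and 83.35 in controls and 57.19, 56.89 and 72.75 with NRF2 siRNA. Every control library was above every NRF2 siRNA library, a separation seen in this direction at 12.8% of all regions tested and in the other direction at 7.39%. The mean percentile was 80.3 ± 5.98 in controls and 62.3 ± 9.08 with NRF2 siRNA (SD, n = 3 each; exact permutation test, two-sided, p = 0.1, the smallest that 3 against 3 libraries can give). The score change was -0.45 ± 0.23 (SE) and did not pass the limma test (adjusted p = 0.282, or 0.139 with the replicate block), although it had the same sign in the 3 pairs, at -0.56, -0.46 and -0.33.

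The AIFM2 start peak also differed in width. In controls the peak reached 2.879, 2.598 and 2.314 kb into the gene, and with NRF2 siRNA it reached 1.343, 0.945 and 2.026 kb. On the side before the start the edges lay at -0.83, -0.716 and -0.849 kb in controls and -0.582, -0.598 and -0.648 kb with NRF2 siRNA. How far a called peak extends depends on the depth and length of its list, and these edges were not compared with those of other start peaks. Further into the gene, an intronic region at chr10:71884487-71885762 was called in all 3 controls, at percentiles 6.397, 3.095 and 11.30, and in 0 NRF2 siRNA libraries. Over all 49186 regions, 2.27% were likewise called in the controls alone and 0.83% with NRF2 siRNA alone. Among the 34, this AIFM2 intronic region was the only region called in all libraries of a single group. Its peaks were among the weakest of their lists, its score change was -0.42 ± 0.35 (SE, limma adjusted p = 0.529), and it was no longer one-sided when all lists were cut to the 23885 strongest peaks, since that removes weak peaks from the longer lists. Both AIFM2 regions hold a TGACTCAGC match, printed above.

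The other 3 regions of the AIFM2 window belong to neighbours. The region in an intron of MACROH2A2, a histone variant gene, was not called in control 1 or NRF2 siRNA 1, and lay at 10.32 and 23.55 in the other controls and 25.00 and 48.15 in the other NRF2 siRNA libraries. Its score change of 0.50 ± 0.22 (SE) had an unadjusted p of 0.0484 and a limma adjusted p of 0.218. The MACROH2A2 start region was not called in NRF2 siRNA 1 and lay at 70.10 and 68.47 in the other NRF2 siRNA libraries, above the 43.45, 47.02 and 62.61 of the controls. The TYSND1 start region overlapped between groups, with a score change of -0.02 ± 0.23 (SE). So within this window the AIFM2 start and the adjacent intronic region had negative changes in every pair. The intronic MACROH2A2 region had positive ones, that of pair 1 being the 0.2511 of an uncalled pair. None of these regions passed the threshold. The intronic AIFM2 region took the lowest rank in every NRF2 siRNA library, where it was uncalled. Its negative sign in each pair follows from its calls alone.

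**Figure D4:**
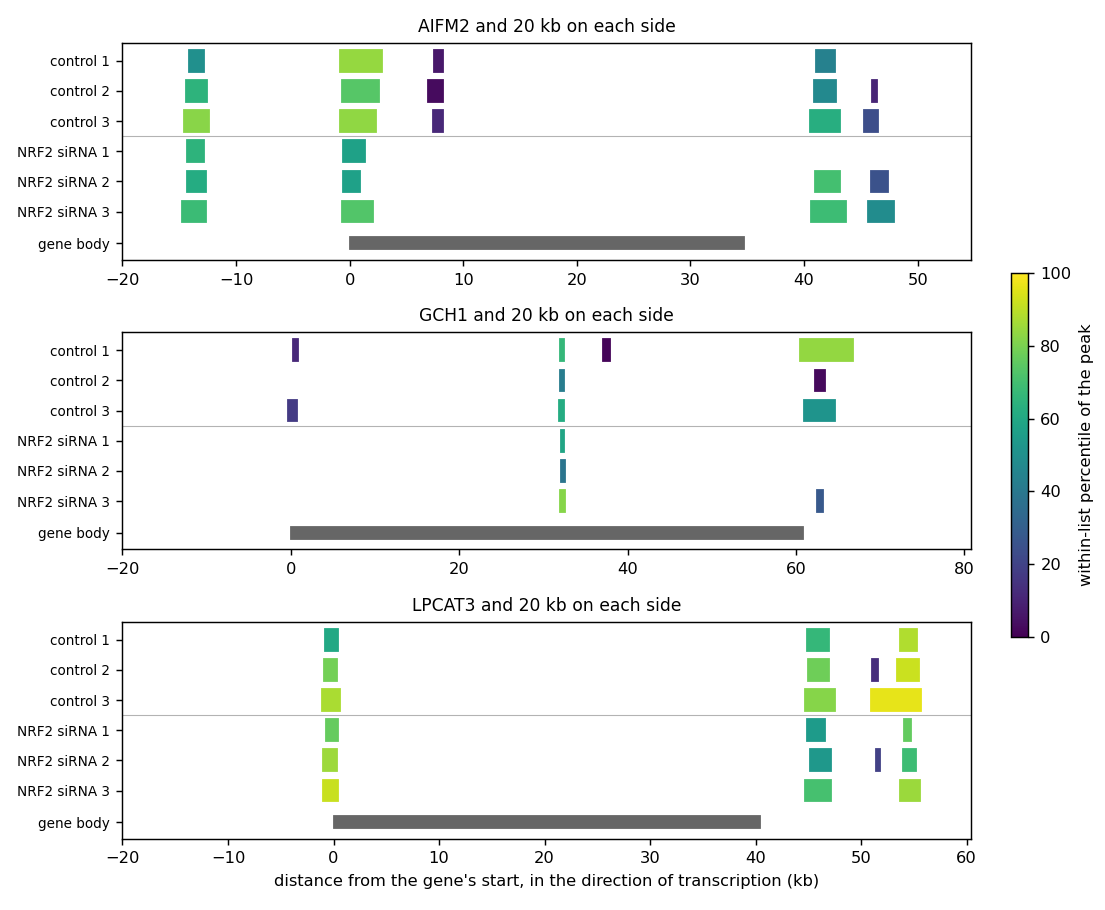
Peaks in the windows of AIFM2, GCH1 and LPCAT3 by library (rows; controls above, NRF2 siRNA below), with the distance from the gene's start in the direction of transcription on the horizontal axis (kb), the colour giving the percentile of each peak and the grey bar the gene body. The AIFM2 start peak extends less far into the gene with NRF2 siRNA, and the peak 6.928 kb after the AIFM2 start and the peaks at the GCH1 start appear in control rows alone.

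DHODH encodes the dihydroorotate dehydrogenase of the inner mitochondrial membrane, which reduces ubiquinone while it makes pyrimidines. H3K27ac at its start was weak. The region chr16:72042135-72043121 was called in control 3 at percentile 17.12 and in NRF2 siRNA 2 and 3 at 17.26 and 17.59, and was uncalled in the other 3 libraries. The score change was 0.42 ± 0.23 (SE, limma adjusted p = 0.325), and of this the change in pair 1, where neither library called the region, is the 0.2511 described above. An exonic region at chr16:72058282-72059548, with 1 TGACTCAGC match, was called in control 2 at 40.78 and control 3 at 60.70 and in 0 NRF2 siRNA libraries. It was called in too few libraries to be tested.

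GCH1 encodes GTP cyclohydrolase, the rate-limiting enzyme of tetrahydrobiopterin synthesis, a radical-trapping cofactor. Its start region, chr14:55368723-55369884, was called in control 1 at percentile 11.33 and control 3 at 17.40, and in 0 NRF2 siRNA libraries, which is too few libraries for the test. The widest control peaks of the window lay past the other end of the gene, at chr14:55302770-55309006, a region that touches the last GCH1 exon. It stood at 83.91, 2.445 and 51.78 in controls and at 27.38 in NRF2 siRNA 3, and was uncalled in NRF2 siRNA 1 and 2. Its score change was the most negative of the 22, at -0.98 ± 0.53 (SE), with changes of -1.97, -0.36 and -0.60 in the 3 pairs, and it did not pass (limma adjusted p = 0.313, or 0.0855 with the replicate block). The change was -0.35 without control 1 and -1.55 without control 2.

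The GCH1 window also gave the clearest difference in covered length. Peaks covered 8.044, 1.695 and 5.296 kb of it in controls and 0.41, 0.494 and 1.297 kb with NRF2 siRNA. The lowest control was above the highest NRF2 siRNA library, which held in this direction for 6.82% of 16640 coding genes with a region in their window and in the other direction for 1.2%. Covered length depends on list length, and NRF2 siRNA 1 had the shortest list. The windows of the other 9 genes overlapped between groups in covered length. An intronic GCH1 region, chr14:55336975-55337662, was called in all 6 libraries, at 66.57, 41.85 and 61.54 in controls and 58.64, 38.71 and 81.92 with NRF2 siRNA, so the peaks of this gene did not all differ alike (score change 0.22 ± 0.33, SE).

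SLC3A2 encodes the heavy chain that carries the cystine importer SLC7A11, among other amino acid transporters, to the cell surface. Its window had 2 start regions called in all libraries. The inner one, chr11:62646984-62652225, begins 23508 bases after the outermost start and lay at 96.09, 96.78 and 97.93 in controls and 93.18, 93.00 and 95.95 with NRF2 siRNA. The outer one, chr11:62621728-62625750, lay at 76.74, 81.42 and 87.19 in controls and 75.93, 68.30 and 75.41 with NRF2 siRNA. At both, each control library was above each NRF2 siRNA library (exact permutation test, two-sided, p = 0.1 for each, the smallest possible). Such a separation was seen at 12.8% of all regions tested, and in the other direction at 7.39%. The score changes were -0.27 ± 0.19 and -0.25 ± 0.22 (SE) and neither passed (limma adjusted p = 0.456 and 0.552). At the outer start, the change in pair 1 was 0.10, against -0.42 and -0.43 in pairs 2 and 3. In pair 1 the score and the percentile thus differed in direction.

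In the same window, the start region of WDR74 lay at 91.32, 94.02 and 96.87 in controls and 87.90, 92.36 and 94.01 with NRF2 siRNA, with overlap between the groups. A further region after the gene was called in control 3 alone. SLC3A2 was thus among the most acetylated members in both groups, and the separation between groups at its inner start amounted to 2.89 percentile points of the means (96.9 ± 0.93 against 94.0 ± 1.65, SD, n = 3 each).

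ACSL4 activates long polyunsaturated fatty acids for phospholipids and is known to promote ferroptosis. Its start region, chrX:108975593-108977180, was uncalled in both replicate 1 libraries, lay at 44.23 and 57.75 in controls 2 and 3, and at 45.57 and 46.47 in NRF2 siRNA 2 and 3. The score change was 0.02 ± 0.32 (SE, limma adjusted p = 0.985). An intergenic region 5695 bases before the start lay at 21.44 and 56.84 in the same controls and 17.71 and 43.01 in the same NRF2 siRNA libraries. Its change was -0.05 ± 0.28 (SE). The 2 intronic regions of ACSL4 were called in control 3 alone, at 5.979, and in NRF2 siRNA 2 and 3 alone, at 22.58 and 34.18. All 4 regions of this gene were uncalled in both replicate 1 libraries, which had the shortest lists.

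LPCAT3 inserts polyunsaturated acyl chains into lysophospholipids. Its start region, chr12:7125158-7126857, lay at 60.08, 78.89 and 87.43 in controls and 76.20, 85.16 and 91.61 with NRF2 siRNA. The groups overlapped, but each NRF2 siRNA library was above the control of its own pair, and the score change was 0.35 ± 0.22 (SE, limma adjusted p = 0.391). The start and the far end of the window differed in direction. At chr12:7070092-7074872, 50909 bases from the LPCAT3 start and over exons of PHB2, a mitochondrial prohibitin, and PTPN6, a tyrosine phosphatase, controls lay at 88.26, 91.80 and 96.19 and NRF2 siRNA libraries at 76.14, 68.64 and 84.97, without overlap.

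That PHB2 and PTPN6 region had the lowest adjusted p of the 22, with a score change of -0.65 ± 0.23 (SE; unadjusted p = 0.0184, limma adjusted p = 0.128, or 0.0727 with the replicate block). It passed with limma's trend and robust options (adjusted p = 0.0444) and with the replicate block and equal list lengths together (0.0497), an alternative added after seeing the data. The neighbouring region at the EMG1 and PHB2 starts lay at 66.43, 78.11 and 82.00 in controls and 54.63, 53.44 and 70.65 with NRF2 siRNA. Its change was -0.38 ± 0.21 (SE, limma adjusted p = 0.331). Both regions are in the LPCAT3 window by distance alone, and neither overlaps LPCAT3.

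ACSL3 activates monounsaturated fatty acids, whose entry into membranes is known to protect from ferroptosis. Its start region, chr2:223722610-223727956, lay at 94.05, 95.51 and 97.44 in controls and 85.45, 95.19 and 98.09 with NRF2 siRNA. NRF2 siRNA 1 was the lowest and NRF2 siRNA 3 the highest of the 6, and the score change was -0.08 ± 0.23 (SE, limma adjusted p = 0.88). The peak of control 1 in this region ran from -1.918 to -0.154 kb and did not reach the outermost ACSL3 start. An intergenic region of 10239 bases at chr2:223700086-223710324, ending 15336 bases before the start, lay at 72.43, 79.00 and 79.25 in controls and 61.91, 73.35 and 67.47 with NRF2 siRNA. Its change was -0.21 ± 0.20 (SE, limma adjusted p = 0.607). The other 4 regions of ACSL3 were called in 1 or 2 libraries, at percentiles of 0.8285 to 18.65.

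TFRC encodes the transferrin receptor, which brings iron-loaded transferrin into cells. The region at its start, chr3:195807717-195810296, was the only H3K27ac region in its window, and it holds 0 cores. It lay at 51.74, 53.62 and 77.76 in controls and 28.49, 59.70 and 72.88 with NRF2 siRNA. Replicate 3 was the highest of each group, NRF2 siRNA 1 was the lowest of all, and the groups overlapped. The means were 61.0 ± 14.5 and 53.7 ± 22.8 (SD, n = 3 each), and the score change was -0.05 ± 0.22 (SE, limma adjusted p = 0.926).

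NCOA4 is the receptor that delivers ferritin to autophagy and so frees stored iron. The region at its outer start, chr10:51564617-51566883, lay at 6.934, 22.95 and 55.86 in controls and 24.40, 53.83 and 61.20 with NRF2 siRNA. The values overlapped between groups, yet each NRF2 siRNA library exceeded its paired control. The score change of 0.52 ± 0.21 (SE) was the highest of the 22 and did not pass (unadjusted p = 0.0392, limma adjusted p = 0.194, or 0.12 with the replicate block). It passed only with the replicate block and equal list lengths together, at 0.89 (adjusted p = 0.0354). At the inner start, chr10:51571642-51574617, controls lay at 53.19, 44.01 and 42.32 and NRF2 siRNA 2 and 3 at 45.52 and 47.75, while NRF2 siRNA 1 had no peak. Its change was -0.29 ± 0.29 (SE), and it was -1.17 in pair 1 against 0.03 and 0.27 in pairs 2 and 3.

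**Figure D5:**
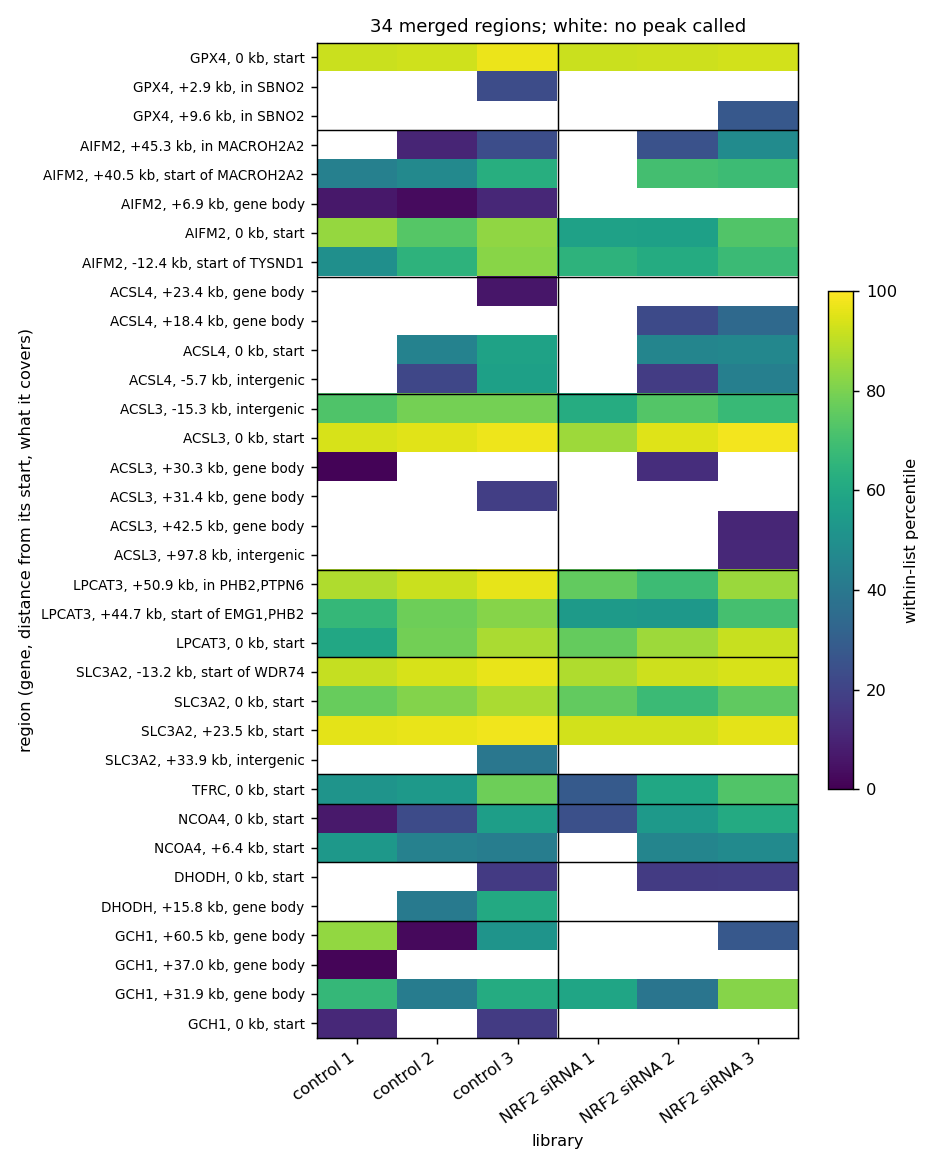
Within-list percentile (colour, 0 to 100; white where no peak was called) of the 34 regions (rows, with gene, distance from its start and what the region covers) in the 6 libraries (columns; controls left, NRF2 siRNA right). The rows of the inner SLC3A2 start and of the ACSL3 and GPX4 starts lie above 85 in all columns, and the column of NRF2 siRNA 1 has the most white cells, with 14 of 34 regions called.

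By position, 12 of the 34 regions held a start of a member, 11 of them tested and 8 called in all 6 libraries. Another 10 lay elsewhere in a member gene, of which 3 were tested and 1 was called in all 6. Neighbouring genes accounted for 4 start regions and 4 other regions, and 4 were intergenic. Calls in all 6 libraries were thus more frequent at member starts than elsewhere in member genes, which was not compared with all regions. Without overlap between groups, 5 of the 22 tested regions were lower with NRF2 siRNA and 0 were higher, against 12.8% and 7.39% of all regions tested. These were the AIFM2 start and intronic regions, both SLC3A2 starts and the PHB2 and PTPN6 region. The AIFM2 intronic region entered the test through its control calls alone, which also set its separation. At the outer SLC3A2 start the score change in pair 1 was positive.

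The regions with a TGACTCAGC match can be set beside their changes, as a description made after the values were seen. All 6 tested regions with a match had a negative score change, from -0.45 to -0.11, and 0 passed the test. They include the AIFM2 intronic region, whose negative sign follows from its calls in controls alone. Among the 16 tested regions without a match, 10 were negative. Over all regions tested on chromosomes, 64.4% of the 3443 with a match were negative and 16.4% were called lower, against 46.6% and 1.86% of the 29206 without. Regions with a match were longer, with medians of 3457 against 2359 bases, and the part of length in these shares was not tested.

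The siRNAs 28 and 30 were set apart by a model with a term for replicate 1 and its interaction with the group, added after seeing the data, which leaves 2 residual degrees of freedom. The interaction passed at 0 of all 32673 regions, with the lowest limma adjusted p at 0.346, so the model could make no call at the 22 regions and says nothing on whether the siRNAs acted alike there. The unadjusted p was under 0.05 at 3871 of all regions and at 2 of the 22. The 2 were the MACROH2A2 start (limma adjusted p = 0.346) and the inner NCOA4 start (limma adjusted p = 0.348), both uncalled in NRF2 siRNA 1. The siRNA, the flow cell and the short list of that library cannot be told apart there.

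Other genes of the ferroptosis pathway were taken as context, from a list of 38 genes in 4 groups. They had 160 regions near 37 genes, 116 of them tested. Of the 116, 6 were called lower and 3 higher (limma), against 3.39% and 2.01% of all regions tested. With the replicate block the counts were 13 and 5, against 2164 and 1868 of all 32673 regions. With single libraries left out, which leaves fewer samples for the test, these counts moved: with control 2, control 3 or NRF2 siRNA 2 left out there were 0 in either direction, without NRF2 siRNA 3 there were 2 lower and 1 higher, without control 1 there were 3 and 2, and without NRF2 siRNA 1 there were 7 and 4. Without control 2, 0 of all 32673 regions passed, so that count says nothing on the context genes. For the other libraries left out, the counts over all regions are not given here. An unadjusted p under 0.05 was found at 32 regions (27.6%), against 22.5% of all regions tested. The median change was -0.16, against 0.02 over all. In pairs 1, 2 and 3 it was -0.10, -0.16 and -0.26, against 0.17, 0.02 and 0.0008 over all. The part of regions uncalled in pair 1 was not tested here either. By group, 1 lower and 2 higher of 24 lay in the windows of cystine and glutathione genes, 2 lower and 1 higher of 36 in those of iron genes, 1 lower of 30 in those of lipid genes and 2 lower of 26 in those of radical-trapping genes, neighbours' regions included.

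GCLC, the catalytic subunit of the enzyme that begins glutathione synthesis, was among those that fell. Its start region stood at 99.83, 99.86 and 99.84 in controls and 83.83, 94.93 and 97.29 with NRF2 siRNA (score change -1.37 ± 0.22, SE; limma adjusted p = 0.0134). MGST1, a membrane glutathione transferase, fell at its start from 97.60, 99.26 and 99.55 to 72.75, 90.54 and 93.00 (-1.13 ± 0.23; adjusted p = 0.0278). An intronic MGST1 region, at 46.80, 61.62 and 65.45 in controls, was uncalled in all 3 NRF2 siRNA libraries (adjusted p = 0.0169). NQO1, a canonical NRF2 target, lay at 99.26, 99.06 and 99.44 in controls and 95.07, 87.22 and 94.48 with NRF2 siRNA at its start and narrowly missed the threshold (-0.94 ± 0.23; limma adjusted p = 0.0508, or 0.0223 with the replicate block). Beside these, the AIFM2 start stood at a score change of -0.45, and the difference from them was not tested.

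The remaining calls among the context genes lay away from starts of the listed gene. An intron of POR, the cytochrome P450 reductase gene, fell from 94.39, 98.28 and 99.68 to 17.34, 81.32 and 89.51 (-1.48 ± 0.36; limma adjusted p = 0.0467). A region beyond SLC40A1, the iron exporter ferroportin, fell from 82.67, 84.97 and 87.05 to 25.17, 62.63 and 67.88 (adjusted p = 0.0488). The window of SLC39A14, a metal importer, held an intronic region that fell (-1.48; adjusted p = 0.0318) and the start of PIWIL2, which rose (1.09; adjusted p = 0.0209). A region over an exon of GSR, glutathione reductase, rose (1.22; adjusted p = 0.0218). In the GSS window the region that rose lay over an exon of the neighbour ACSS2, an acetyl-CoA synthetase gene, 46617 bases from the GSS start (0.86; adjusted p = 0.0453).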

How the data were processed

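H3K27ac was mapped in A549 cells, in 3 control siRNA and 3 NRF2 siRNA libraries grouped by their titles. The 2 input samples were not analysed here. Per the labels and the study's methods, the authors mapped the reads to hg19 by Bowtie2 2.2.6, removed reads of mapping quality under 20 with SAMtools, called peaks in each library with MACS2 2.1.0.20151222 and took out blacklisted positions. Whether an input served as background is not given in the sources used here. The deposited lists give each peak's position, an integer score, its fold enrichment as a ratio, and −log10 values of p and q (p-value, q-value). The smallest −log10 q-value was 1.01. The lists hold no read counts and no comparisons made by the authors.

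Peaks were merged over the 6 lists (overlap of 1 base or more), and regions were matched to genes of GENCODE lifted to GRCh37, whose 24 chromosomes held all peaks placed on them. Percentiles use the middle rank of ties. Uncalled regions shared the lowest rank, and normal scores were compared with limma 3.58.1 (lmFit, eBayes) in R 4.3.3 at a threshold of 0.05 over 32673 regions. This step was tested on simulated scores. Other steps used Python 3.11.15, numpy 2.4.6, pandas 2.3.3 and scipy 1.17.1, and single values were compared by exact permutation tests. With 3 against 3 libraries, precision rests on the spread between replicates.

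Same-numbered libraries, numbered in the titles, deviated together from their group means (r = 0.398, 0.199 and 0.363). Between unlike numbers r ran from -0.383 to 0.107. The numbers were therefore taken as pairs, and whether shared list length gave these values was not tested. The fit with the replicate block was an alternative. Other alternatives were equal list lengths, a q-value of at most 1e-05, other filters, windows of 5 and 50 kb, peaks joined within 500 bases, a length-weighted mean fold, other limma options and leaving out libraries. The genes, lists and tests were chosen with earlier results of these data known. Named in the text are each gene's start region, regions past the threshold or called in a single group, and each gene's region with the largest change. Other regions of the 34, apart from these, were named to account for all of them. A single motif site is not reported here.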

Additional observations from a re-analysis of the deposited data

How the results depend on the processing

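Of 327 recomputed changes at the 22 tested regions, 298 kept their direction and their side of the threshold, 3 newly passed it and 26, at 7 regions, changed sign. Adding the replicate block or limma's trend and robust options leaves the score change itself as it was. In those fits only the side of the threshold could move. The count of regions called lower went from 0 to 1 with limma's trend and robust options, with the replicate block and equal list lengths together (added after seeing the data) and with a 50 kb window, which takes in more regions. The count called higher went from 0 to 1 with the block and equal list lengths. The counts over all regions at these settings are not given here. The replicate block alone left both at 0 and changed no call at the 22 regions. Regions called in controls alone went from 1 to 0 with equal list lengths and with a q-value of at most 1e-05, where fewer peaks are kept, and to 2 in replicates 2 and 3. Over single libraries left out they ranged from 1 to 2 (2 without control 1, control 2 or NRF2 siRNA 3). Regions called with NRF2 siRNA alone went from 0 to 1 in replicates 2 and 3, and ranged from 0 to 1 (1 without NRF2 siRNA 1). The context genes had 13 regions lower and 5 higher under the replicate block, against 2164 and 1868 of all 32673 regions. They had 0 to 7 lower and 0 to 4 higher when single libraries were left out. Without control 2, 0 of all 32673 regions passed.

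The MACROH2A2 start was at -0.04 and moved to 0.0899 with equal list lengths, with or without the block, to 0.74 with the stricter q-value, to 0.43 in replicates 2 and 3, and ranged from -0.30 to 0.38 with single libraries left out. The TYSND1 start ranged from -0.16 to 0.13 in that way and the intergenic ACSL4 region from -0.27 to 0.22. The ACSL4 start moved to -0.0370 with equal list lengths, with or without the block, to -0.0029 with no filter and to -0.10 in replicates 2 and 3, and ranged from -0.31 to 0.22. The ACSL3 start moved to 0.0583 in replicates 2 and 3 and ranged from -0.26 to 0.0941. The TFRC start moved to 0.37 with the stricter q-value and 0.0205 in replicates 2 and 3, and ranged from -0.17 to 0.0811. The inner NCOA4 start moved to 0.15 in replicates 2 and 3. The causes were not tested. The AIFM2 start stayed negative in 16 alternatives, from -0.82 to -0.31, with limma adjusted p from 0.0835 to 0.608. Those with the block or other limma options repeat a change by construction. The GCH1 3′ region ranged from -1.55 to -0.35. Depth differed between libraries and was not used, so an uncalled region means only that no peak passed the authors' threshold.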
